A study of Mus musculus with 6 samples.

Results

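The 38 transcripts described here encode the translation initiation factors of the mouse other than eIF2 and eIF2B. They are all genes of the table whose symbol begins Eif1, Eif3, Eif4, Eif5 or Eif6, once Eif5a and Eif5a2 (elongation factor eIF5A, 2 genes) and 9 pseudogenes are set aside from the 49 symbols with these beginnings. The whole table holds 55538 genes. The members fall into an eIF1 group of 5 genes, an eIF3 group of 14, an eIF4 group of 13, the Eif4ebp inhibitors with 3, an eIF5 group of 2 and Eif6. All 38 had a mean of at least 1 unit of signal over the libraries, the minimum for testing.

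Total RNA was measured in primary cortical neurons of C57BL/6 mouse embryos at day 14.5, cultured in DMEM with 10% fetal bovine serum and rested for 2 h at 37 °C. Control cells then stayed at 37 °C for 60 min, and heated cells were held at 42 °C for 15 min or for 60 min, with 2 libraries in each of the 3 groups. No control of 15 min is described, so time in culture and heat cannot be told apart when the 15 min group is compared with either other group. The labels do not say whether the libraries of a group came from separate cultures or embryos, so p-values measure only the spread between these libraries. The libraries of each group are named s1 and s2, after the column suffixes.

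Initiation begins with the small ribosomal subunit, to which eIF1, eIF1A, eIF3, eIF5 and the initiator tRNA carried by eIF2 bind. The cap-binding complex eIF4F, made of the cap binder eIF4E, the scaffold eIF4G and the RNA helicase eIF4A, brings the mRNA to that subunit, with eIF3 as the bridge. eIF5 and eIF5B act at the start codon and when the large subunit joins, and eIF6 keeps free large subunits apart from small ones. The 4E-binding proteins (genes Eif4ebp) hold eIF4E away from eIF4G until the kinase mTORC1 phosphorylates them. Heat shock is known to repress cap-dependent translation of most mRNAs, in part by changes to these proteins. Only transcript levels were measured here, not the proteins, their phosphorylation or translation.

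The values are a normalised signal which the table calls TPM, so they are already per transcript length and levels may be set side by side between genes. One abundant member shares most of its coding sequence with a pseudogene, and this limits every statement about it. Over its coding sequence of 1218 bases, Eif4a1 matches the processed pseudogene Eif4a-ps4 with 1 mismatch, an identity of 99.9%. Of the 1119 windows of 100 bases in that coding sequence, the length of 1 read, 1019 (91.1%) are found unaltered in the pseudogene. The stretch with the single difference is shown here from the GRCm38 reference, which is not the authors' build, with the differing base in capitals. The substitution is G20A, counted from the first base shown, with Eif4a1 as the reference.
Eif4a1, GRCm38 chr11:69668654-69668753, minus strand: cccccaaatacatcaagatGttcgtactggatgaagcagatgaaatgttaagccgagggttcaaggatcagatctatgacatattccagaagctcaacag
Eif4a-ps4, GRCm38 chr1:60704446-60704545, plus strand: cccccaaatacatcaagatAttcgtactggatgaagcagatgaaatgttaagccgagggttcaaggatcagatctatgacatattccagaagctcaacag
A read from either place other than one over this base or outside the coding sequence fits both genes. A second pair, Eif3j1 and Eif3j2, shares 1915 windows, 36% of those of Eif3j1 and 84% of those of Eif3j2. The low inhibitor gene Eif4ebp3 shares 62.8% of its windows with an overlapping transcript, AC115631.1. The abundant Eif1 shares 19.2% of its windows with Emd or with pseudogenes, and 12.8% with those of them averaging 1 or more. Of the 38 members, 25 share no such window with another gene.

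Promoter sequences from RefSeq, build GRCm38.p6, were at hand for 27 of the 38 members, each running from 250 bases before to 50 after the start. The letters CACGTG, the canonical E-box that Myc and related factors bind, read the same on both strands and were found in 8 of the 27 (29.6%). They were found in 8.09% of all 27025 promoters of that length, and in 12.5% of the 5084 whose genes had a mean of at least 20 here. Part of the heat shock factor element was also sought, as TTCNNGAA and GAANNTTC, each of which reads the same on both strands. TTCNNGAA occurred in 2 members (7.41%), against 9.6% of all promoters and 8.14% of those whose genes had a mean of at least 20. GAANNTTC occurred in 3 members (11.1%), against 9.04% and 6.86%. These windows, of 30 bases and all before the start, show the E-box in capitals in a member of the eIF1 group, a pair of eIF3 subunits and members of the cap-binding complex. A match is a string of letters, and binding was not measured.
Eif1b, GRCm38.p6 chr9:120492570-120492599, plus strand: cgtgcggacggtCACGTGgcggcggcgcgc
Eif3f, GRCm38.p6 chr7:108934335-108934364, plus strand: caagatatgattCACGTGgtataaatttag
Eif3k, GRCm38.p6 chr7:28981915-28981944, minus strand: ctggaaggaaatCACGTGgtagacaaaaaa
Eif4e, GRCm38.p6 chr3:138527192-138527221, plus strand: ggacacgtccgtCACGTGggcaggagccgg
Eif4g1, GRCm38.p6 chr16:20672661-20672690, plus strand: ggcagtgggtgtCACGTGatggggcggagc

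No initiation factor transcript passed the test in any comparison. limma called 9 of 21954 genes (0.0410%) between 60 min and control and 4 (0.0182%) between 60 and 15 min. It called none (0%) between 15 min and control, where 868 genes had an unadjusted p under 0.05. These 868 are less than a fraction of 0.05 of the 21954 genes, the fraction awaited if no gene differed. With so few calls among all genes, the absence of calls among 38 members says little about them, and the values themselves follow. The sequencing depth of the libraries is unknown. The members together made up 0.619 to 0.753% of the signal of a library. Control s1 stands apart from the other libraries, with 29309 genes at 1 or more against 19035 to 21796, and the share of mitochondrially encoded transcripts ran from 9.08 to 16.3%.

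All 11 neuronal and 7 neural progenitor markers were detected in every library. The neuronal markers summed to 1549.7 and 2112 in control, 2224 and 2251 at 15 min and 2002 and 2007 at 60 min. The largest of them, Map2 and Tubb3, ran differently. Map2 gave 516 and 497 in control, 810 and 628 at 15 min and 827 and 718 at 60 min. Tubb3 gave 461 and 773 in control, 604 and 723 at 15 min and 456 and 456 at 60 min. The progenitor markers summed to 2309 and 2609 in control, 2857 and 3307 at 15 min and 2654 and 3066 at 60 min, with both heated groups above both controls. Vim carried most of that sum, with 1413 and 1786 in control, 2200 and 2017 at 15 min and 2180 and 1945 at 60 min. Fabp7 likewise lay above both controls in every heated library, with 326 and 313 in control, 478 and 400 at 15 min and 463 and 377 at 60 min. Sox2, Eomes, Pax6, Nes and Hes5 did not. Sox2 gave 142 and 128 in control, 136 and 86.6 at 15 min and 77.7 and 62.8 at 60 min. Eomes gave 89.9 and 102 in control, 98.6 and 90.4 at 15 min and 45.8 and 40.6 at 60 min. The lists of astrocytes, oligodendrocyte lineage, microglia, endothelial and mural cells and fibroblasts summed to at most 39.3 in any library, and that of erythroid cells to 192 to 369. The part of these marker differences in the results was not tested. In such bulk RNA, fewer cells of a type and less RNA per cell cannot be told apart.

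**Figure D1:**
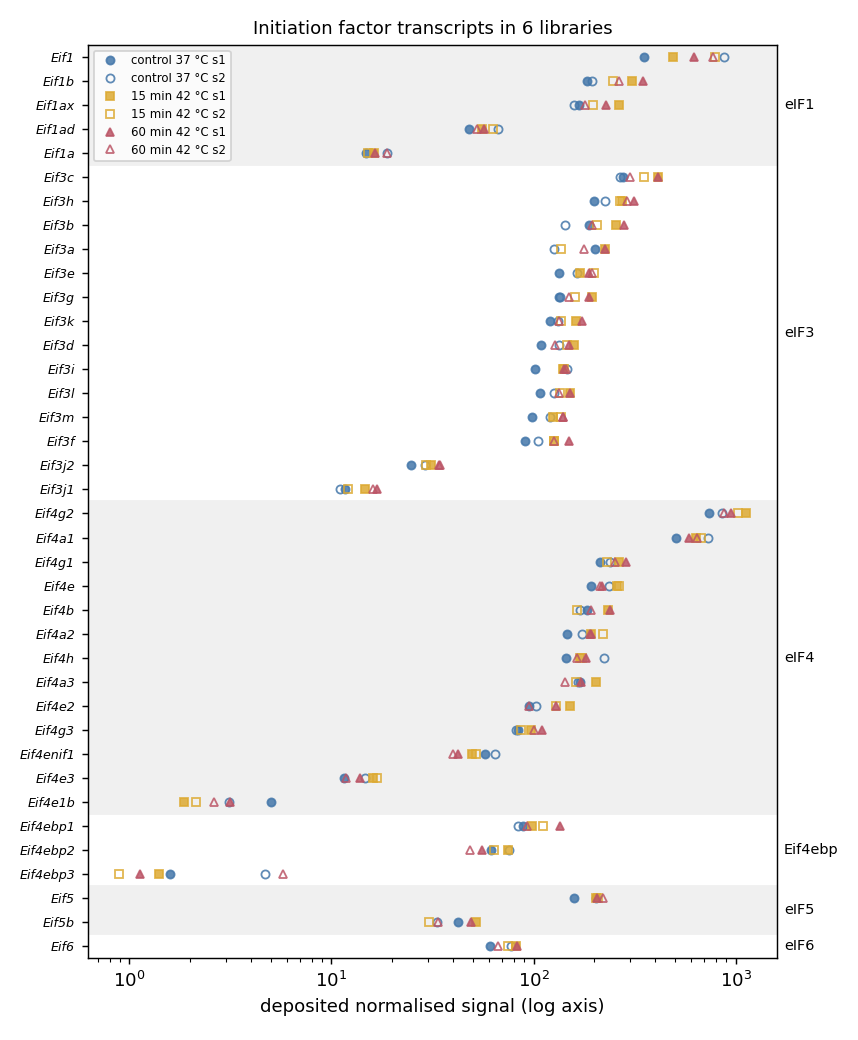
Normalised signal (log axis) of the 38 initiation factor transcripts, by group of factors, in each of the 6 libraries; filled symbols are s1 and open symbols s2. Levels run from about 1 unit for Eif4ebp3 to 1122 for Eif4g2, and most members lie between 100 and 500.

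The levels span a wide range. In their means over the 6 libraries, 23 members lay between 100 and 500, 3 above 500, 7 between 20 and 100, 3 between 5 and 20 and 2 under 5. The members above 500 were Eif4g2 at 927, Eif1 at 650.2 and Eif4a1 at 629.6. Those under 5 were Eif4e1b at 2.98 and Eif4ebp3 at 2.58.

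Among the factors that bind the small subunit first, transcripts of Eif1b and Eif1ax were higher in all 4 heated libraries than in both controls. Of the 5 members of this group 4 were higher than control at 60 min (median 0.31) and 4 at 15 min (median 0.16). Without control s1 the count was 2 in each comparison. Of the 6772 genes averaging 20 or more, 57.8% were higher at 60 min (median 0.06) and 71.6% at 15 min (median 0.15). Of the same genes, 22.9% had both libraries above both controls at 60 min and 31.7% at 15 min. Of all genes tested, 12.8% did at 60 min and 15.1% at 15 min. Eif1, the factor that guards against initiation at wrong codons, gave 352 and 879 in control, 487 and 790.3 at 15 min and 619.7 and 773 at 60 min. The 2 controls enclosed all heated libraries, so no difference of Eif1 could be seen beyond their spread. Eif1b, a close relative of Eif1, gave 184 and 195 in control, 306 and 249 at 15 min and 346 and 265 at 60 min. Its log2 change was 0.67 ± 0.22 (SE) at 60 min against control (adjusted p = 0.509) and 0.54 ± 0.22 at 15 min against control (adjusted p = 0.747). Eif1b thus had the largest positive change of all 38 members in each of these comparisons, and it is one of the members that shares no window with another gene.

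eIF1A, which works with eIF1 in scanning, is encoded by Eif1a and by the X-linked Eif1ax. Eif1ax gave 169 and 158 in control, 265 and 197 at 15 min and 229.6 and 181 at 60 min. Eif1a was much lower, with 14.8 and 18.9 in control, 16.3 and 15.2 at 15 min and 16.3 and 18.7 at 60 min. Both of its heated groups overlapped with control, and the 60 min libraries lay barely above those of 15 min. Eif1ad, a gene with an eIF1A-like domain, ran from 47.9 to 66.7 with overlapping groups.

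All 14 eIF3 genes were higher at 60 min than in control, with a median log2 change of 0.35, and all 14 were higher at 15 min, with a median of 0.30. Eif3j1 and Eif3j2, which encode the same subunit and share much of their sequence, count separately here. In both comparisons the same 2 control libraries serve as the reference. eIF3 is the largest initiation factor and the scaffold on the small subunit. At 60 min, 11 of the 14 had both libraries above both controls, where 12.8% of all genes tested and 22.9% of the 6772 genes averaging 20 or more did. At 15 min, 12 did, where 15.1% of all genes and 31.7% of those at 20 or more did. The changes were small, from 0.21 to 0.50 at 60 min and from 0.14 to 0.49 at 15 min, and none passed the test. Over these abundant genes the median change was 0.06 at 60 min and 0.15 at 15 min, and over all genes tested it was -0.12 and -0.098. Without control s1 or without control s2, 13 of 14 remained higher in each comparison, and the median at 60 min was 0.27 and 0.43 in turn.

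The subunits Eif3a, Eif3c, Eif3e, Eif3f, Eif3h, Eif3k, Eif3l and Eif3m form the structural core, built on PCI and MPN domains. Eif3a, the largest subunit, gave 202 and 127 in control, 226 and 137 at 15 min and 226 and 177 at 60 min. In each group s1 lay far above s2, so its groups overlapped. Eif3c, the most abundant subunit, gave 277 and 266 in control, 414 and 350 at 15 min and 414 and 301 at 60 min, with both heated groups above control. Its log2 change at 15 min was 0.49 ± 0.22 (adjusted p = 0.747).

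Eif3h gave 199 and 225 in control, 275 and 269 at 15 min and 313 and 288 at 60 min, so the 3 groups stood in order with no overlap. Its log2 change at 60 min against control was 0.50 ± 0.18 (adjusted p = 0.544). Eif3f, which like Eif3h carries an MPN domain, gave 90.8 and 105 in control, 126 and 126 at 15 min and 149 and 127 at 60 min. Its change at 60 min was 0.49 ± 0.19 (adjusted p = 0.572). The other core subunits (Eif3e, Eif3k, Eif3l and Eif3m) ran from 98.1 to 199, and all were above both controls in each heated library.

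Of the subunits outside the core, Eif3b carries the module to which Eif3g and Eif3i attach. Eif3b gave 189 and 144 in control, 255 and 205 at 15 min and 281 and 194 at 60 min, with both heated groups above both controls. Eif3d, a subunit that can itself contact the cap, ran from 108 to 158 and overlapped with control at 60 min only. Eif3i, a WD-repeat subunit, ran from 102 to 146 and overlapped with control at both times. Eif3g ran from 133 to 195 and lay above control at both times.

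Eif3j, a loosely held subunit, comes from a pair of near-identical genes. Eif3j1 was the lowest eIF3 transcript, with 11.7 and 11.1 in control, 14.6 and 12.1 at 15 min and 16.7 and 16.0 at 60 min. Its log2 change at 60 min was 0.49 ± 0.20 (adjusted p = 0.589). How the reads of Eif3j1 and Eif3j2 were divided is uncertain. The summed signal of Eif3j1 and Eif3j2 was 36.4 and 40.2 in control, 45.8 and 41.4 at 15 min and 50.8 and 50.5 at 60 min. The division of reads affects this sum too, because the signal is per transcript length. The transcript compared for Eif3j1 has 5413 bases and that for Eif3j2 has 2379. The sum was higher in all 4 heated libraries than in both controls.

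The mean log2 level of the 8 core genes exceeded that of the 6 others by 1.07 to 1.12 in all 6 libraries. The low Eif3j1 and Eif3j2 weigh heavily in the mean of these others. Against the mean of the 14 in the same library, Eif3j1 stood at -3.26 to -2.91 and Eif3j2 at -2.11 to -1.86. Eif3b, Eif3d, Eif3g and Eif3i stood at -0.04 to 0.94, within the span of the core genes, from -0.18 for Eif3f to 1.58 for Eif3c. Set against the mean of the 14 in the same library, Eif3l kept within a range of 0.17, Eif3k and Eif3f within 0.21, and Eif3h within 0.23 on the log2 scale. Eif3b varied over 0.55, Eif3i over 0.45, Eif3e over 0.38 and Eif3c and Eif3j1 over 0.35, which is as wide as many of the differences between groups. Eif3a varied most, over a range of 0.83, being high in s1 and low in s2 of each group.

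**Figure D2:**
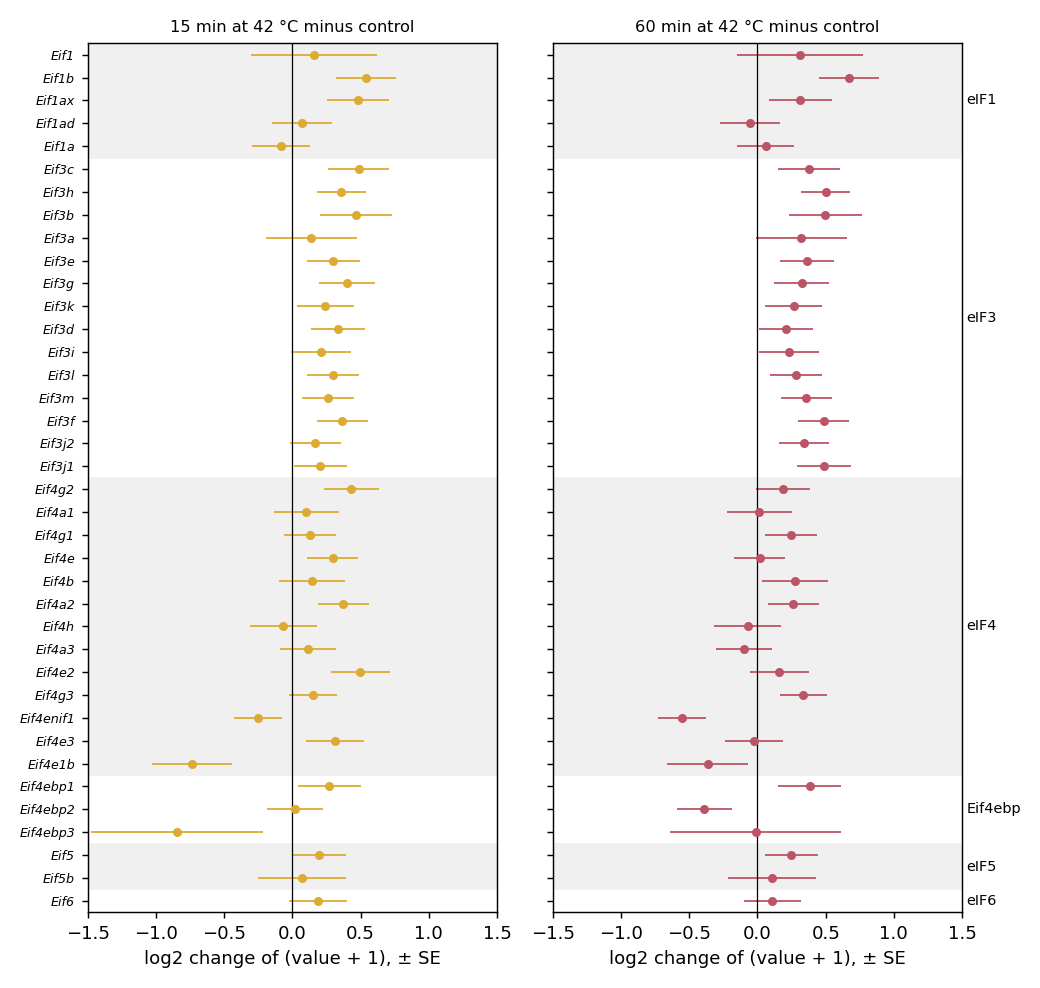
Log2 change of (value + 1) with its standard error from limma for the 38 transcripts, at 15 min (left) and 60 min (right) at 42 °C against the 37 °C control, with 2 libraries per group. All 14 eIF3 genes lie right of 0 in both panels, while eIF4 and Eif4ebp members lie on both sides, and none passed the adjusted p of 0.05.

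The eIF4 group showed no common direction at 60 min. Of its 13 members, 8 were higher and 5 lower at 60 min than in control (median 0.02), and 10 were higher at 15 min (median 0.15). At 60 min, 5 members lay above both controls and 1 below, and at 15 min 6 lay above and 2 below. Of all genes tested, 12.8% lay above and 19.8% below at 60 min, and 15.1% above and 18.9% below at 15 min. The lean at 60 min differed with the control library: without control s1, 6 of 13 were higher (median -0.087), and without control s2, 10 of 13 were higher (median 0.22).

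eIF4E, the cap-binding protein, is the target of the 4E-binding proteins. Its transcript Eif4e gave 192 and 235 in control, 258 and 264 at 15 min and 218 and 212 at 60 min. It was above both controls at 15 min and between them at 60 min, and its change at 60 min against 15 min was -0.28 ± 0.19 (adjusted p = 0.900). Eif4e2, a cap-binding relative that acts mostly in repression, gave 94.7 and 103 in control, 151 and 129.6 at 15 min and 128 and 95.3 at 60 min. Its change was 0.50 ± 0.22 at 15 min against control (adjusted p = 0.747) and -0.34 ± 0.22 at 60 min against 15 min (adjusted p = 0.898). The second of these was -0.12 without 60 min s2 and -0.55 without 60 min s1.

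The third relative, Eif4e3, gave 11.6 and 14.7 in control, 16.0 and 16.8 at 15 min and 13.8 and 11.8 at 60 min, with a change of -0.34 ± 0.21 at 60 min against 15 min (adjusted p = 0.898). Eif4e, Eif4e2 and Eif4e3 thus each lay above both controls at 15 min and below both 15 min libraries at 60 min. Above both controls at 15 min lay 15.1% of all genes tested and 31.7% of the 6772 abundant genes. Below both 15 min libraries at 60 min lay 22.6% of all genes tested and 29.4% of the abundant genes. These shares are for each step alone, and Eif4e3, with a mean of 14.1, is not among the abundant genes. Eif4e1b, a relative known from oocytes, was near the minimum for testing, with 5.04 and 3.11 in control, 1.86 and 2.13 at 15 min and 3.14 and 2.62 at 60 min. Its change at 15 min was -0.74 ± 0.30 (adjusted p = 0.747). It was -0.46 without control s1, the library with the most genes detected and the highest value of Eif4e1b. Eif4e gave 60.0 to 66.0% of the signal of these 4 genes in every library.

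The scaffold eIF4G is encoded by Eif4g1 and Eif4g3, while Eif4g2 encodes DAP5, a relative that lacks the eIF4E binding site. Eif4g1 gave 214 and 239 in control, 265 and 230.2 at 15 min and 286 and 252 at 60 min. Eif4g3 gave 84.0 and 81.7 in control, 97.6 and 87.1 at 15 min and 109.7 and 100.4 at 60 min, in order with no overlap of the groups. Eif4g2, the most abundant member of all, gave 741 and 855 in control, 1122 and 1028 at 15 min and 944 and 872 at 60 min. It was highest at 15 min, with a change of 0.43 ± 0.20 against control (adjusted p = 0.747). On the log2 scale Eif4g2 exceeded Eif4g1 by 1.79 and 1.83 in control, 2.08 and 2.15 at 15 min and 1.72 and 1.79 at 60 min. Only the 15 min libraries stood apart in this difference, which a scaling factor for a whole library hardly touches.

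The helicase eIF4A is encoded by Eif4a1 and Eif4a2. As deposited, Eif4a1 gave 506 and 733 in control, 636 and 672 at 15 min and 589.7 and 641 at 60 min, with all heated libraries between the 2 controls. The pseudogene Eif4a-ps4 gave 624 and 344 in control, 823 and 544 at 15 min and 793 and 481 at 60 min. In each group the pseudogene was higher in s1 and Eif4a1 was higher in s2. The pseudogene held 31.9 to 57.4% of the summed signal, and how the estimation divided shared reads between these genes was not tested. The sum was 1129 and 1077 in control, 1459 and 1216 at 15 min and 1383 and 1122 at 60 min. The 15 min libraries lay above both controls in the sum, which they did not for Eif4a1 alone.

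**Figure D3:**
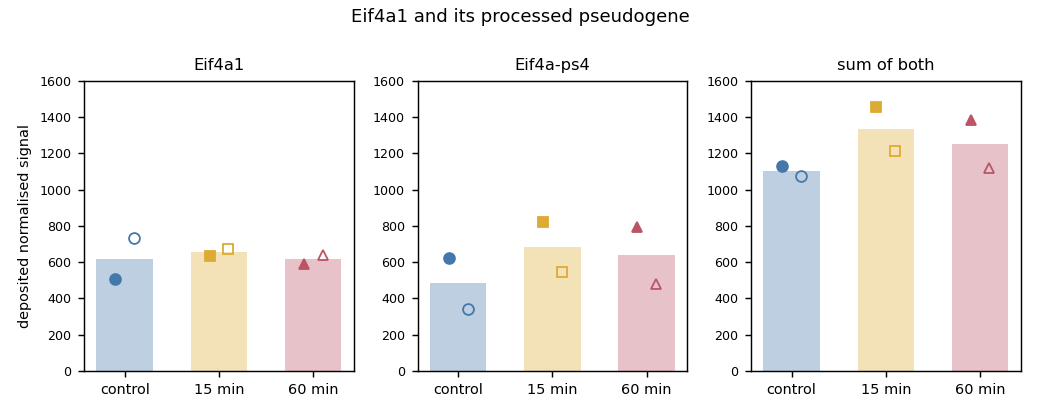
Normalised signal of Eif4a1, of its processed pseudogene Eif4a-ps4 and of their sum; bars are group means of 2 libraries, filled symbols s1 and open symbols s2. The 2 rows differ in opposite directions between s1 and s2 in every group, and the sums lie between 1077 and 1459.

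Eif4a2, the helicase form that is prominent in brain, gave 146 and 174 in control, 194 and 221 at 15 min and 193 and 189.8 at 60 min, with both heated groups above control. Eif4a3, which belongs to the exon junction complex and not to eIF4F, gave 169 and 167 in control, 203 and 163 at 15 min and 172 and 142 at 60 min. Its groups overlapped. The helicase cofactors Eif4b and Eif4h ran from 164 to 240.0 and from 145 to 224. Eif4b lay above both controls at 60 min only, and Eif4h overlapped with control at both times.

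Eif4enif1 had the smallest p of all members at 60 min and was lower in all 4 heated libraries than in both controls. It encodes 4E-T, which carries eIF4E to the nucleus and to P-bodies and represses translation there. It gave 57.2 and 64.6 in control, 49.8 and 52.1 at 15 min and 42.5 and 39.7 at 60 min, so the groups stood in descending order with no overlap. Its log2 change was -0.55 ± 0.18 at 60 min against control (adjusted p = 0.502) and -0.30 ± 0.18 at 60 min against 15 min (adjusted p = 0.895). Only 2 members lay below both controls at 60 min, Eif4enif1 and Eif4ebp2, where 19.8% of all genes tested and 13.7% of those at 20 or more did. At 15 min 3 members lay below both controls, Eif4enif1, Eif4e1b and Eif4ebp3. Of all genes tested 18.9% did, and of those at 20 or more 4.90%. Only Eif4enif1 of these 3 members averaged 20 or more. Relative to Eif4e in the same library, Eif4enif1 stood at -1.73 and -1.85 in control, -2.35 and -2.32 at 15 min and -2.33 and -2.39 at 60 min on the log2 scale.

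The inhibitor genes differed in direction. Eif4ebp1 gave 89.0 and 83.4 in control, 97.8 and 111 at 15 min and 136 and 93.3 at 60 min, above both controls in all heated libraries. Eif4ebp2, the form known as the main 4E-binding protein of brain, gave 61.4 and 76.0 in control, 75.0 and 63.9 at 15 min and 55.6 and 48.5 at 60 min. Both 60 min libraries lay below the other 4, with a change of -0.41 ± 0.20 at 60 min against 15 min (adjusted p = 0.872). Eif4ebp3 gave 1.60 and 4.68 in control, 1.41 and 0.89 at 15 min and 1.13 and 5.79 at 60 min, which is too low and scattered for a comparison, and most of its sequence is shared with AC115631.1.

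The share of Eif4ebp1 in the signal of the 3 inhibitor genes was 58.6 and 50.8% in control, 56.1 and 63.2% at 15 min and 70.5 and 63.2% at 60 min. The log2 difference of Eif4ebp1 over Eif4ebp2 was 0.53 and 0.13 in control, 0.38 and 0.79 at 15 min and 1.27 and 0.93 at 60 min. At 60 min it was thus above all libraries of the other groups. The summed inhibitors stood at 0.790 and 0.698 of the Eif4e signal in control, 0.674 and 0.666 at 15 min and 0.883 and 0.695 at 60 min, with 60 min and control overlapping.

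**Figure D4:**
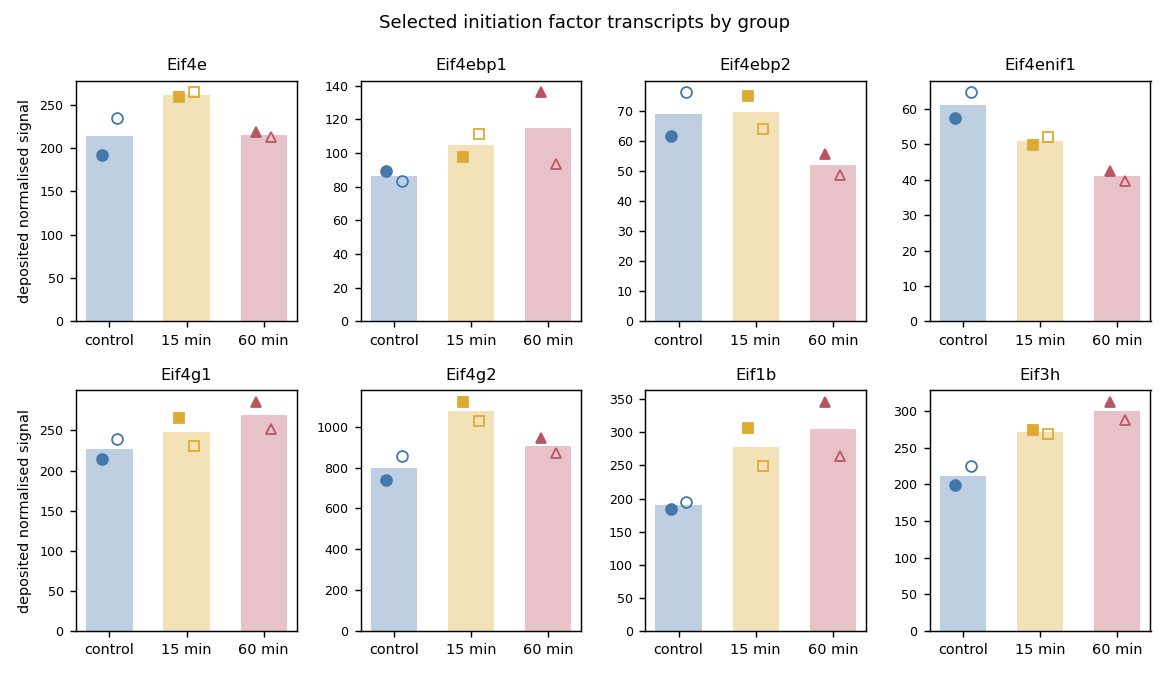
Normalised signal of 8 transcripts in control, 15 min and 60 min libraries; bars are group means of 2 libraries, filled symbols s1 and open symbols s2. Eif4enif1 is lower in each successive group, Eif4ebp2 is lowest at 60 min, Eif4g2 is highest at 15 min, and Eif1b and Eif3h lie above control in all 4 heated libraries.

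Differences of the factors of later steps were small. Eif5, which makes eIF2 hydrolyse its GTP at the start codon, gave 159 and 203 in control, 204 and 208 at 15 min and 206 and 221 at 60 min, just above both controls in all heated libraries. Eif5b, the GTPase of subunit joining, gave 42.4 and 33.4 in control, 51.6 and 30.2 at 15 min and 49.2 and 33.6 at 60 min, and s1 was higher in each group. Eif6, which also has a role in making the large subunit, gave 60.8 and 77.4 in control, 81.7 and 74.8 at 15 min and 82.5 and 66.6 at 60 min. The groups of Eif5b and Eif6 overlapped.

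Over all 38 members, 30 were higher at 60 min than in control (median 0.26), and 20 lay above both controls, as did 12.8% of all genes tested and 22.9% of those averaging 20 or more. At 15 min, 33 were higher than in control (median 0.21), and 22 lay above both controls, as did 15.1% of all genes tested and 31.7% of those averaging 20 or more. Rescaling without the mitochondrially encoded genes left 29 members higher at 15 min with a median of 0.10, and quantile normalisation left 22 with a median of 0.059. Of the 6772 genes averaging 20 or more, 57.8% were higher at 60 min and 71.6% at 15 min. The count at 60 min rested partly on control s1: without it 24 members were higher, with a median of 0.15, and without control s2 it was 32, with a median of 0.32. At 60 min against 15 min, 21 were higher and 17 lower (median 0.03). In that comparison 9 members lay above both 15 min libraries and 7 below, where 25.9% of all genes tested lay above and 22.6% below. Of the genes averaging 20 or more, 12.9% lay above and 29.4% below.

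The groups of factors parted in their balance. In each library the mean log2 level of the 14 eIF3 genes was set against that of the 13 eIF4 members, a difference that a factor common to a library hardly changes. It was -0.09 and -0.16 in control, 0.10 and 0.03 at 15 min and 0.23 and 0.19 at 60 min, in order and without overlap. The 60 min mean exceeded that of control by 0.33 and the 15 min mean exceeded it by 0.19, where the pooled SD within groups was 0.04. With medians of the groups in place of means the differences were 0.17 and 0.10, and with only the members at a mean of 5 or more 0.30 and 0.12, and in both forms the 3 groups again did not overlap. With 2 libraries a group no exact permutation test can pass, and the members were chosen with results known, so no p is given.

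Set against the median of the abundant genes in the same library, the eIF3 mean was higher by 0.36 at 60 min and by 0.20 at 15 min than in control. The eIF4 mean was higher by 0.03 and 0.02. Relative to the mean of all 38 members, eIF3 was 0.17 higher and eIF4 0.16 lower at 60 min than in control.

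**Figure D5:**
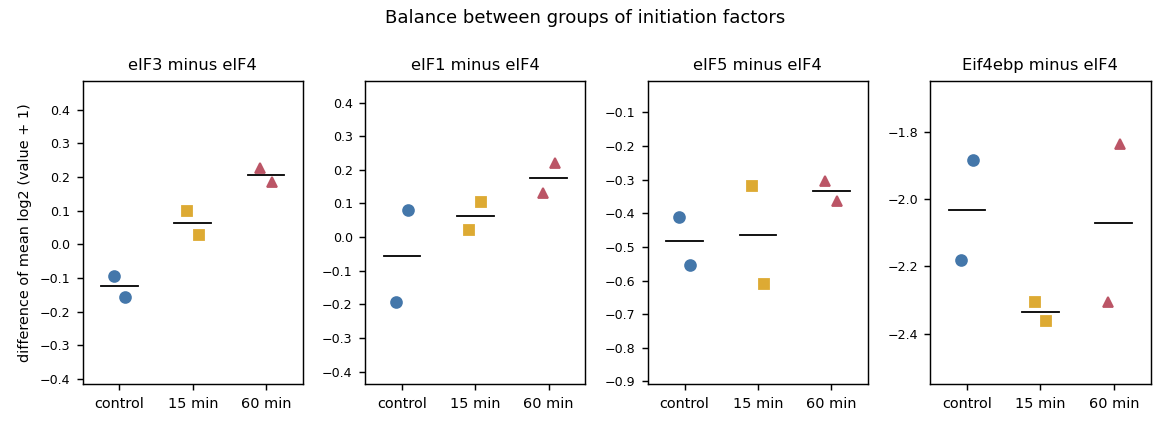
Difference between the mean log2 (value + 1) of one group of factors and that of the eIF4 group, in each library, with a line at the mean of each group of 2 libraries; each panel spans the same height on its own axis. The eIF3 difference stands in order from control to 60 min with no overlap, and in each of the other 3 panels at least 1 pair of groups overlaps.

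With means, all 3 conditions stood apart in none of the other groups. The eIF1 group stood against eIF4 at -0.19 and 0.08 in control, 0.02 and 0.10 at 15 min and 0.13 and 0.22 at 60 min, with 60 min above the other 4 libraries. With medians in place of means, the eIF1 difference was -0.12 at 60 min against 15 min, where means gave 0.11. The eIF5 group stood at -0.41 and -0.55 in control, -0.32 and -0.61 at 15 min and -0.30 and -0.36 at 60 min, so 60 min lay above control. The inhibitors stood at -2.18 and -1.88 in control, -2.31 and -2.36 at 15 min and -2.31 and -1.83 at 60 min, where the very low Eif4ebp3 weighs as much as the other inhibitors. With medians in place of means they stood at -1.24 and -1.15 in control, -1.36 and -1.34 at 15 min and -1.68 and -1.73 at 60 min, in descending order and without overlap. The median of the 3 inhibitor genes is the value of Eif4ebp2 in each library.

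The kinases upstream and the partners of the factors were read from a pair of lists. None of the 19 genes of mTORC1 signalling and eIF4E kinases and none of the 25 partners and regulators was called in any comparison. The signalling list holds subunits of mTORC1, such as Mlst8, and inhibitors of its signalling, such as Ddit4, so its counts and medians give no direction for the pathway. Of the signalling genes, 6 of 19 (31.6%) were higher at 60 min than in control, with a median of -0.19, where 37.3% of all genes tested and 57.8% of those averaging 20 or more were higher. Without control s2 the median was -0.02, with 8 higher, and without control s1 it was -0.35, with 6 higher. Median-of-ratios scaling over genes above 0 made 11 of 19 higher. At 15 min 10 of 19 were higher, with a median of 0.0033, against -0.24 without control s1 and 0.17 without control s2, and at 60 min against 15 min 5 of 19 were higher, with a median of -0.06. Of the genes averaging 20 or more, 71.6% were higher at 15 min than in control and 34.1% at 60 min than at 15 min (medians 0.15 and -0.09).

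Mknk2, one of the kinases that phosphorylate eIF4E, gave 30.4 and 56.2 in control, 32.5 and 30.8 at 15 min and 16.1 and 22.7 at 60 min. Its log2 change at 60 min against control was -1.08 ± 0.32 (adjusted p = 0.473), and -0.64 without control s2. Its relative Mknk1 gave 43.8 and 28.6 in control, 50.1 and 48.1 at 15 min and 31.7 and 26.4 at 60 min, with -0.74 ± 0.25 at 60 min against 15 min (adjusted p = 0.686). Transcripts of both eIF4E kinases were thus lower in both 60 min libraries than in both 15 min libraries. So were 22.6% of all genes tested and 29.4% of the 6772 abundant genes. Ddit4, an inhibitor of mTORC1 signalling, gave 138 and 248 in control, 123 and 165 at 15 min and 81.9 and 101 at 60 min, with -1.02 ± 0.32 at 60 min against control (adjusted p = 0.502) and -0.59 without control s2. Mlst8, a subunit of mTORC1, changed by -0.63 ± 0.23 at 60 min against 15 min (adjusted p = 0.745), and Rps6kb2, an S6 kinase, by 0.74 ± 0.25 at 15 min against control (adjusted p = 0.747), or 0.49 without 15 min s1.

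Of the partners, 21 of 25 were higher than control at 60 min (median 0.26) and 21 at 15 min (median 0.24), and 13 were higher at 60 min than at 15 min (median 0.01). Of the 6772 abundant genes, 57.8% were higher than control at 60 min (median 0.06) and 71.6% at 15 min (median 0.15). Of the same genes, 34.1% were higher at 60 min than at 15 min (median -0.09). Ncbp1, the larger subunit of the nuclear cap-binding complex, changed by 0.48 ± 0.19 at 60 min against control (adjusted p = 0.574). Ncbp2, the cap-binding subunit of the same complex, gave 89.9 and 69.8 in control, 154 and 130.3 at 15 min and 148 and 103 at 60 min. Its change at 15 min against control was 0.83 ± 0.25 (adjusted p = 0.747).

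The lower end at 15 min held Angel1, an eIF4E-binding protein, at -0.39 ± 0.25, and Larp1, a repressor of mRNAs for the translation machinery, at -0.29 ± 0.22 (adjusted p = 0.747 for both). Angel1 stood at -0.20 without control s2 and -0.23 without 15 min s2. Larp1 stood at -0.04 without control s2 and -0.55 without control s1, and median-of-ratios scaling over genes above 0 turned it to 0.05. At 60 min against 15 min, Larp1 changed by 0.37 ± 0.22 (adjusted p = 0.895) and Mcts2, a relative of the recycling factor Mcts1, by 0.27 ± 0.19 (adjusted p = 0.907).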

How the data were processed

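The authors deposited 1 table of normalised signal per gene, named TPM, whose column totals ran from 892768 to 1056383, so a further factor per library, not given in the sources used here, enters. Per the labels' protocols, ribosomal RNA was removed, and the single-end reads had 100 bases. kallisto, sleuth and GRCm39 were used, per the submitters' processing notes; for versions, strand use and depth nothing is given. Column names give a group and a suffix, so columns were assigned to groups only. A table of Ensembl IDs named 52028 of 55538 genes.

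Members and gene lists were chosen with earlier results of these data known. limma 3.58.1 in R 4.3.3, with a mean-variance trend and group as the only term, was fitted to log2(value + 1) of the 21954 genes averaging 1 or more, over all 6 libraries, which left 3 residual degrees of freedom. Two-sided p-values were adjusted by Benjamini-Hochberg over all 21954, with a threshold of 0.05. A log2 change is one of log2(value + 1) and understates the change of low genes. Called members, or else the 5 with the smallest p per comparison, have their change and error given, and of the lists 2 genes per direction with the smallest p, of which 1 gene is not reported here. Eif3f, Eif3h, Eif3j1 and other members named in single comparisons follow this rule; Eif3j sums, Eif4a-ps4, the family shares and the E-box were chosen after values were seen. Shared sequence was measured as identical windows of 100 bases in GENCODE transcripts of GRCm38, and the planned protein comparison was not run. The fit was tested on simulated data. Alternatives were other pseudocounts, filters and scalings, a replicate block, no trend, only the 4 libraries compared and leaving out each library; for the balance, medians and a summed Eif4a1 were chosen after seeing the data, as were all alternatives for single genes of the lists.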

Additional observations from a re-analysis of the deposited data

How the results depend on the processing

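No initiation factor was called under any alternative, and of the changes given with an error 1 was reversed: that of Larp1 at 15 min against control was 0.047 with median-of-ratios scaling over genes above 0. The number of genes called at 60 min against control was 9 as reported, 5 with a pseudocount of 5 or with no filter, 28 with median-of-ratios scaling over genes above 0, and 2 with only the 4 libraries compared. Leaving out 1 library gave 0 to 146, the highest without control s2, with 48 without control s1. At 15 min against control that scaling called 7 genes, and leaving out 1 library gave 0 to 216, with 41 without control s1 and 216 without control s2. At 60 min against 15 min the 4 reported became 34 with that scaling, 14 with quantile normalisation, 10 without the trend and 0 with only the 4 libraries compared, and leaving out 1 library gave 0 to 2. The same scaling moved the median of all genes from -0.12 to 0.04 at 60 min, from -0.098 to 0.17 at 15 min and from 0.00 to -0.12 between 60 and 15 min, and then 35, 36 and 8 of the 38 members were higher (medians 0.46, 0.55 and -0.12). Quantile normalisation left 22 of 38 higher at 15 min, and 13 of 14 eIF3 genes, whose median became 0.20 at 60 min and 0.13 at 15 min. Rescaling without mitochondrially encoded genes gave the eIF3 genes a median of 0.29 at 60 min and 0.19 at 15 min. In these settings the cause was not tested. For the balance against eIF4, a mean of at least 5 gave 0.12 for eIF3 at 15 min against control, and for Eif4ebp -0.041 at 15 min against control and -0.025 at 60 against 15 min, since this setting leaves out Eif4ebp3 and Eif4e1b. Medians in place of means gave 0.17, 0.10 and 0.070 for eIF3 (60 min against control, 15 min against control, 60 against 15 min). For eIF1 they gave 0.31 at 15 min and -0.12 at 60 against 15 min, and for Eif4ebp -0.52 at 60 min against control and -0.36 at 60 against 15 min.

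The suffixes s1 and s2 are shared by the groups, but with 2 pairs per comparison and correlations of the s1 to s2 difference of 0.10, 0.079 and 0.22 over all genes, they were taken as names only. A fit with the replicate block called 8, 0 and 4 genes (60 min against control, 15 min against control, 60 against 15 min) and 0 members. Over the 38 members the correlations were higher, 0.70 between 60 min and control, 0.58 between 15 min and control and 0.24 between 60 and 15 min. Depth is unknown, so counting error cannot be separated from the spread.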

Other observations

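Within each group, some initiation factors differed between s1 and s2 in a recurrent way. Of the 38 members, 9 were higher in s1 in all 3 groups and 6 were higher in s2 in all 3: Eif1, Eif3e, Eif3i, Eif3m, Eif4a1 and Eif5. The other 23 were mixed. Across the 38 members, which share libraries and so are not independent, the Spearman correlation of the s1 to s2 difference with transcript length was 0.19 at 60 min, 0.28 at 15 min and 0.29 in control, a description with no test.

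Among rows set aside by the rule, Eif5a, the elongation factor that aids peptide bond formation, gave 310.0 and 465 in control, 486 and 449.9 at 15 min and 456 and 429 at 60 min, with all groups overlapping. Eif5a2 stayed between 2.24 and 3.76. Apart from Eif4a-ps4, the 8 other pseudogenes did not exceed 2.46 in any library.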
